A study of Mus musculus with 12 samples.

Results

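A set of 10 genes of the p53 pathway and of growth arrest were followed through the injury of 2 kinds of mouse retinal ganglion cell: Trp53, Mdm2, Mdm4, Cdkn1a, Ccng1, Btg2, Gadd45a, Gadd45b, Gadd45g and Sesn2. They were chosen by gene name, and are 10 of the 38887 genes in the deposited table. All 10 passed the filter on low values and are among the 18269 genes tested. The names were put together with earlier results of these data known, so each adjusted p below gives a gene's place in a fit of all genes and is not independent evidence about the set.

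The tumour suppressor p53, encoded by Trp53 in the mouse, is a transcription factor that is held at a low level by the ubiquitin ligase MDM2 and its relative MDM4, and that builds up when DNA damage or other stress weakens this hold. It then binds and activates genes that stop the cell cycle, repair DNA, change metabolism or start apoptosis, and Mdm2 is itself a target, which closes a feedback loop. Because much of this control acts on the protein, the level of Trp53 RNA is not a measure of p53 activity. Several of the targets are also switched on without p53, among them Gadd45a and Sesn2 by the stress factor ATF4, and Btg2 and Gadd45b by growth factor or activity signals. In adult neurons, which do not divide, p53 is best known for its part in cell death after axon injury.

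RNA had been sequenced from fluorescent ganglion cells picked one by one from dissociated retina, in a study of regulators of axon regeneration. Opn4 cells came from Opn4CreERT/+;R26-tdTomatof/f mice, in which tamoxifen-activated Cre, expressed from the melanopsin gene, turns on a red reporter in intrinsically photosensitive ganglion cells. HB9 cells came from HB9:GFP mice, whose reporter, driven by the promoter of the gene Mnx1, marks ON-OFF direction-selective ganglion cells. Both lines received tamoxifen (0.124 mg/g body weight daily, 5 injections, the earliest on postnatal day 21). All animals had sham surgery or optic nerve crush on postnatal day 42 and were used 3 days later. There were 4 groups (Opn4 sham, Opn4 crush, HB9 sham and HB9 crush) of 3 libraries, numbered 1 to 3 as in the labels, each made of 3 pools of 10 cells with 10 cells taken per animal. Cre and the red reporter belong to the Opn4 line alone and cannot be told apart from the cell class, whereas the crush effect is measured within a line. Levels are RPKM (read counts relative to gene length and library total), and log2 changes are on the log2(RPKM + 1) scale, given as estimate ± SE from 1 limma fit of all 12 libraries, with an adjusted p under 0.05 as the threshold.

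The totals to which the authors had scaled the libraries ran from 15104446 to 28195798 reads. Defining markers followed the labels: all 4 ipRGC markers (Opn4, Eomes, Trpc7 and Gna14) were higher and all 4 markers of the HB9 line (Mnx1, Cartpt, Col25a1 and Cdh6) lower in Opn4 than in HB9 cells after sham. Libraries Opn4 sham 1 and Opn4 crush 1 stood apart from the other 10 on the third principal component, at 83.8 and -61.9, and calls on the 10 genes that change without them are given both ways. Rod transcripts were present in all libraries, with the summed RPKM of 10 rod genes at 720.7 to 1863 in Opn4 sham, 1037 to 3086 in Opn4 crush, 285.2 to 906.4 in HB9 sham and 548.1 to 947.3 in HB9 crush. In such bulk samples, fewer cells of a type and less RNA per cell cannot be told apart.

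Upstream sequences of 5 of the genes are shown because these are the genes with the clearest crush response (Cdkn1a, Gadd45a, Btg2 and Sesn2) and the feedback target that passed the threshold in no comparison (Mdm2). Each is the 250 bases before the transcription start, written 5′ to 3′ on the strand of the gene, from RefSeq on GRCm38.p6, where all 10 genes were found. The stretches lie at chr17:29090729-29090978 on the plus strand for Cdkn1a, and on the minus strand at chr6:67037408-67037657 for Gadd45a, chr10:117710759-117711008 for Mdm2, chr1:134079156-134079405 for Btg2 and chr4:132510457-132510706 for Sesn2. Capitals mark matches to the consensus of 1 decamer of the p53 response element or, in Btg2, to the cyclic AMP response element TGACGTCA.
Cdkn1a: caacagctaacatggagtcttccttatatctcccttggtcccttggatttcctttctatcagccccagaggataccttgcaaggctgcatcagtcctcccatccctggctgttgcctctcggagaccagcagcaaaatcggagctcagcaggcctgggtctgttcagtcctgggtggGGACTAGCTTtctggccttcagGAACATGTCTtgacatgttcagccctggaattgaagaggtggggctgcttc
Gadd45a: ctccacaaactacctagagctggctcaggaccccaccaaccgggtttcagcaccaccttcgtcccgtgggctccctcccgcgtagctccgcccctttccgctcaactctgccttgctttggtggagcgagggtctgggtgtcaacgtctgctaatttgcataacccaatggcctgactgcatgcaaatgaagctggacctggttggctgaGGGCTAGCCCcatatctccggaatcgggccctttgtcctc
Mdm2: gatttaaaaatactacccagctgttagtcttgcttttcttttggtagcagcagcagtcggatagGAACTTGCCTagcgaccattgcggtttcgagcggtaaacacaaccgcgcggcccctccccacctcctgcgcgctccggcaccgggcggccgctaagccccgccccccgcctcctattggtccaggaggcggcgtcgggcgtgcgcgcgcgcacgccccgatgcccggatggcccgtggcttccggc
Btg2: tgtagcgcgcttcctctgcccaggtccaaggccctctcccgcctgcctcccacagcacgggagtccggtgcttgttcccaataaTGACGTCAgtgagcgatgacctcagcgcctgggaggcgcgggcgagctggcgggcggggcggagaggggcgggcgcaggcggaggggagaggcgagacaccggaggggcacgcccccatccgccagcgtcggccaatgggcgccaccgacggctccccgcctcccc
Sesn2: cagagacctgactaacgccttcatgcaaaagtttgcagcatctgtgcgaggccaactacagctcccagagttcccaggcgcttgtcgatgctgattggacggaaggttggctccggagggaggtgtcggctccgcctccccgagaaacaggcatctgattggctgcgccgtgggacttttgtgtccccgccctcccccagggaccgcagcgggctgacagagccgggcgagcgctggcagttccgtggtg
A p53 decamer was found in the windows of 5 of the 10 genes (Trp53, Mdm2, Cdkn1a, Ccng1 and Gadd45a) and in 7.13% of 32851 RefSeq windows of the same length, both strands searched. Cdkn1a holds 2 of them, from 73 to 64 and from 51 to 42 bases before the start used, which is 1 of its 2 starts in RefSeq. Their distance from the other Cdkn1a start was not examined. Gadd45a holds 1, from 40 to 31 bases before its start. The Btg2 window holds TGACGTCA from 166 to 159 bases before the start, a motif of 1.55% of windows. An AP-1 match to TGAGTCA lay in Mdm4 (4.46% of windows), a TGATGNAA match in Gadd45g (3.45%), and TATAAA in Trp53, Gadd45b and Gadd45g (12.4%). The Sesn2 window held none of these, and GGGCGG, which is not capitalised, lay in 5 of the 10 windows against 32.7% of all. These matches describe letters near 1 start of each gene only, and the best-studied p53 sites of Mdm2 and Gadd45a lie in an intron. RefSeq lists 2 starts for Cdkn1a and for Mdm4, and the start nearest the 5′ end of the gene was used.

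With nerve crush, 4 of the 10 genes rose in HB9 cells and 1 in Opn4 cells, and for 3 of them, Cdkn1a, Gadd45a and Sesn2, the size of the response differed between the classes (6.42%, 1.11% and 0.816% of all genes were called in these comparisons). For Gadd45a that difference was past the threshold in 5 of 21 alternatives only. In HB9 cells Cdkn1a, Gadd45a, Sesn2 and Btg2 rose, with fold changes of the mean RPKM from 5.32 (Btg2) to 178 (Cdkn1a). In Opn4 cells Cdkn1a was the 1 gene of the 10 past the threshold, at 4.44 times its sham mean. Trp53 itself, Mdm2 and Mdm4 did not pass the threshold in either class.

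**Figure D1:**
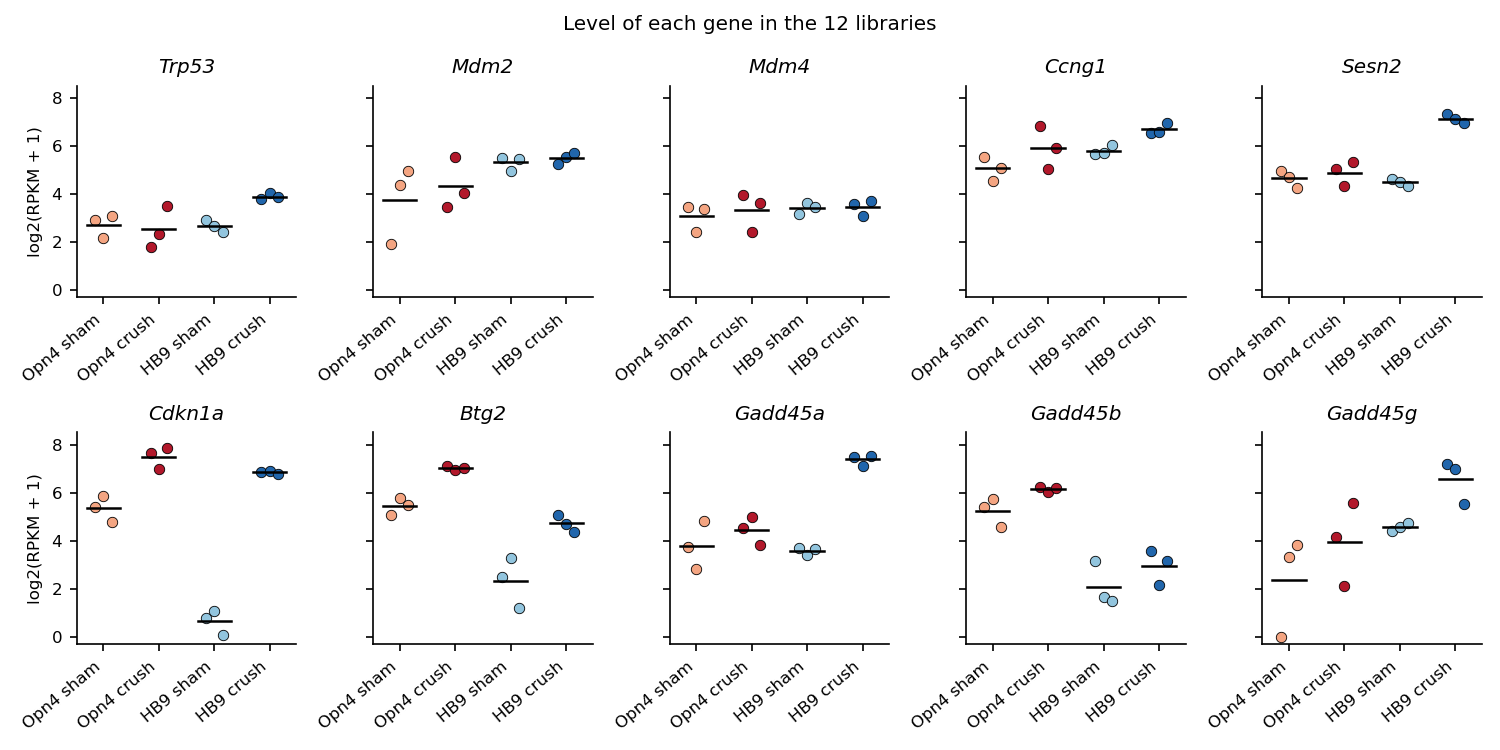
Level of each of the 10 genes as log2(RPKM + 1) on the vertical axis, with 1 point per library and a bar at the mean of each group of 3 libraries. Cdkn1a is near 0 in HB9 sham alone, Gadd45a and Sesn2 are high in HB9 crush alone, Gadd45b is higher in all 6 Opn4 than in all 6 HB9 libraries, and Btg2 is higher in Opn4 cells under each surgery.

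Trp53 (ENSMUSG00000059552, chromosome 11, 69580359 to 69591873 of mm10, plus strand) encodes p53. By group mean it stood at percentile 36.4 of the tested genes in Opn4 sham, 34.7 in Opn4 crush, 37.9 in HB9 sham and 53.5 in HB9 crush. Its RPKM was 6.53, 3.50 and 7.50 in Opn4 sham libraries 1 to 3, and 2.48, 4.05 and 10.2 in Opn4 crush. In HB9 cells it was 6.60, 5.44 and 4.42 after sham and 12.8, 15.6 and 13.6 after crush. The HB9 crush libraries were thus the 3 highest of the 12, and the Opn4 groups overlapped. The log2 change was 1.22 ± 0.46 in HB9 cells (adjusted p = 0.16) and -0.18 ± 0.46 in Opn4 cells (adjusted p = 0.903). In HB9 cells the call turned with the model, to an adjusted p of 0.0364 when the 6 HB9 libraries were fitted alone and 0.0264 with library weights.

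Mdm2 and Mdm4, the negative regulators, showed no call in any comparison. Mdm2 (ENSMUSG00000020184, chromosome 10, 117688888 to 117710758, minus strand) was at 44.8, 30.1 and 43.6 RPKM in HB9 sham and 36.7, 45.8 and 51.9 in HB9 crush, so the groups overlapped (log2 change 0.18 ± 0.67). In Opn4 cells it ranged from 2.80 in sham library 1 to 30.5 in sham library 3, and from 9.98 to 45.3 after crush (0.58 ± 0.67). The low value belongs to a library that stands apart, and without it and Opn4 crush 1 the change was 0.11 ± 0.44. Mdm4 (ENSMUSG00000054387, chromosome 1, 132989845 to 133025366, minus strand), which binds p53 and blocks its activity, lay between 4.32 and 14.5 RPKM in all 12 libraries. Its changes were 0.25 ± 0.46 in Opn4 and 0.05 ± 0.46 in HB9 cells, and its groups overlapped in all 4 comparisons of groups.

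Cdkn1a (ENSMUSG00000023067, chromosome 17, 29090979 to 29100722, plus strand) encodes p21, the cyclin-dependent kinase inhibitor through which p53 halts the cell cycle. In HB9 sham libraries it was almost absent, at 0.741, 1.13 and 0.0453 RPKM, which correspond to 37, 62 and 2 recovered reads (approximate numbers). In HB9 crush it stood at 115.4, 118.5 and 107.0 RPKM. Opn4 cells already held 41.3, 57.7 and 26.1 RPKM after sham, and 199.5, 125.1 and 230.7 after crush. Crush libraries were above sham libraries in both classes without overlap, all Opn4 crush libraries lay above all HB9 crush libraries, and all Opn4 sham libraries lay above all HB9 sham libraries. The crush change was 6.19 ± 0.35 in HB9 cells (adjusted p = 1.25e-06) and 2.15 ± 0.35 in Opn4 cells (adjusted p = 0.00957). The difference of the changes (Opn4 minus HB9) was -4.04 ± 0.49 (adjusted p = 0.00434).
The level after crush was less far apart, at 185.1 ± 54.2 RPKM in Opn4 and 113.7 ± 5.95 RPKM in HB9 cells (SD, n = 3), a log2 difference of 0.65 ± 0.35 (adjusted p = 0.254). After sham the same difference was 4.69 ± 0.35 (adjusted p = 3.89e-06), and the Opn4 mean was 65.2 times the HB9 mean. The call in Opn4 cells was lost with a pseudocount of 0.1 (adjusted p = 0.15), in a fit of the 6 Opn4 libraries alone (0.095) and without the 2 libraries that stand apart (0.0608), where the estimate was 2.10 ± 0.45. The difference of the changes was not past the threshold on recovered reads with voom (adjusted p = 0.0765).

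Btg2 (ENSMUSG00000020423, chromosome 1, 134075170 to 134079120, minus strand), an antiproliferative gene whose product recruits the CCR4-NOT deadenylase to RNA and which also acts as an immediate early gene in neurons, differed by class and by injury. It was at 32.3, 53.2 and 44.2 RPKM in Opn4 sham and 137.2, 120.6 and 128.7 in Opn4 crush. HB9 cells held 4.58, 8.66 and 1.30 RPKM after sham and 32.7, 24.8 and 19.8 after crush. Crush libraries lay above sham libraries in both classes, and Opn4 libraries lay above HB9 libraries after the same surgery. Btg2 rose by 2.40 ± 0.42 in HB9 cells (adjusted p = 0.00421), while the change of 1.58 ± 0.42 in Opn4 cells did not pass (adjusted p = 0.101, and 0.0187 with voom on recovered reads). The difference of these changes, -0.82 ± 0.60, was not past the threshold (adjusted p = 0.631). The class difference was 3.12 ± 0.42 after sham (adjusted p = 0.0004) and 2.30 ± 0.42 after crush (adjusted p = 0.00367).

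Ccng1 (ENSMUSG00000020326, chromosome 11, 40748552 to 40755311, minus strand) encodes cyclin G1, a p53 target that works with protein phosphatase 2A on MDM2. Its RPKM was 46.0, 22.6 and 33.1 in Opn4 sham, 113.4, 31.6 and 60.4 in Opn4 crush, 50.1, 51.3 and 64.8 in HB9 sham, and 91.2, 95.5 and 123.3 in HB9 crush. HB9 crush libraries lay above HB9 sham libraries without overlap, while the Opn4 groups overlapped. Estimates were nearly equal, at 0.88 ± 0.38 in HB9 (adjusted p = 0.227) and 0.87 ± 0.38 in Opn4 cells (adjusted p = 0.329), and their difference was -0.02 ± 0.54. In the fit of the 6 HB9 libraries alone, Ccng1 passed (adjusted p = 0.0171), as it did with library weights (0.0266).

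The 3 Gadd45 genes encode small proteins that bind and activate the kinase MAP3K4, and with it p38 and JNK signalling, and that take part in DNA repair and demethylation. Each had a pattern of its own. Gadd45a (ENSMUSG00000036390, chromosome 6, 67035096 to 67037457, minus strand) was at 12.02, 9.48 and 11.7 RPKM in HB9 sham and 178.0, 137.7 and 184.2 in HB9 crush. In Opn4 cells it was 12.2, 5.97 and 27.1 after sham and 21.9, 30.8 and 12.9 after crush. The HB9 crush libraries were far above the other 9, and the Opn4 groups overlapped. Gadd45a rose by 3.79 ± 0.44 in HB9 cells (adjusted p = 0.000227), against 0.66 ± 0.44 in Opn4 cells (adjusted p = 0.534). The difference, -3.13 ± 0.62 (adjusted p = 0.038), was near the threshold: its adjusted p was 0.0683 with a replicate block, 0.0514 with a rod covariate, 0.0817 without the 2 libraries that stand apart and 0.105 at most when 1 library was left out. It stayed past the threshold in 5 of 21 alternatives. After crush Gadd45a was lower in Opn4 than in HB9 cells by 2.94 on the log2 scale (-2.94 ± 0.44, adjusted p = 0.000892), with no overlap. The transcript E230016M11Rik, on the opposite strand (chromosome 6, 67036599 to 67080654), overlaps the gene and moved from 2.07 to 3.20 RPKM in HB9 sham to 20.3 to 26.6 in HB9 crush. Whether the counting used strand is not stated, so reads of the pair cannot be told apart.

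Gadd45b (ENSMUSG00000015312, chromosome 10, 80930091 to 80932204, plus strand) differed by class, and its change with injury did not pass the threshold. Its RPKM was 41.4, 51.8 and 23.0 in Opn4 sham and 74.3, 64.9 and 71.3 in Opn4 crush, against 7.78, 2.12 and 1.79 in HB9 sham and 10.9, 3.39 and 7.82 in HB9 crush. All 6 Opn4 libraries lay above all 6 HB9 libraries, and in Opn4 cells the crush libraries lay above the sham libraries. The class difference was 3.15 ± 0.49 after sham (adjusted p = 0.00107) and 3.20 ± 0.49 after crush (adjusted p = 0.00103). Crush changes were 0.91 ± 0.49 in Opn4 cells (adjusted p = 0.427) and 0.86 ± 0.49 in HB9 cells (adjusted p = 0.392).

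Gadd45g (ENSMUSG00000021453, chromosome 13, 51846678 to 51848468, plus strand) had the largest standard errors of the 10. It was listed at 0, 9.03 and 13.05 RPKM in Opn4 sham, where 3 reads in library 1 would have been 0.112 RPKM, and at 16.9, 3.39 and 47.1 in Opn4 crush. In HB9 cells it was 19.9, 22.5 and 25.9 after sham and 145.8, 125.5 and 45.0 after crush. HB9 crush libraries lay above HB9 sham libraries, and Opn4 sham libraries below HB9 sham libraries. The estimates were 2.01 ± 0.95 in HB9 cells (adjusted p = 0.28) and 1.58 ± 0.95 in Opn4 cells (adjusted p = 0.483). The HB9 change passed in a fit of the HB9 libraries alone (adjusted p = 0.0161) and with library weights (0.0216), and the Opn4 estimate fell to 0.29 ± 0.88 without the 2 libraries that stand apart.

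**Figure D2:**
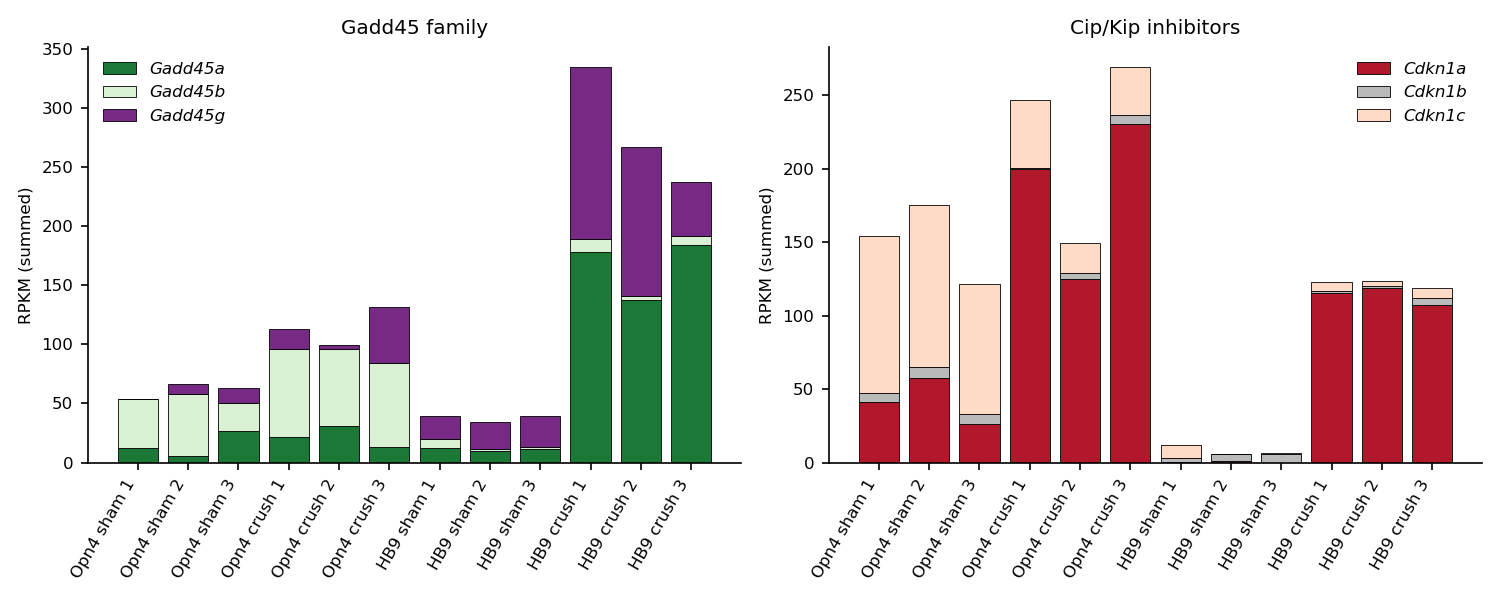
Stacked RPKM of the 3 Gadd45 genes (left) and of the 3 Cip/Kip kinase inhibitors (right) in each of the 12 libraries, both axes from 0. Gadd45b takes most of the Gadd45 total in 5 of the 6 Opn4 libraries and Gadd45a in the HB9 crush libraries, while Cdkn1a is the main Cip/Kip gene in both crush groups.

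The family members therefore stood in different proportions in each group. Gadd45b held 63.8% ± 23.7 of the summed Gadd45 RPKM in Opn4 sham and 61.8% ± 6.53 in Opn4 crush (SD, n = 3 for all shares). Gadd45g held 60.6% ± 9.12 in HB9 sham, and Gadd45a held 60.8% ± 14.6 in HB9 crush, where Gadd45b was at 2.61% ± 1.16. The summed level went from 37.7 ± 3.12 to 279.4 ± 50.05 RPKM with crush in HB9 cells, and from 61.1 ± 6.83 to 114.5 ± 16.1 in Opn4 cells.
Among the Cip/Kip inhibitors, Cdkn1c (p57) held 68.3% ± 4.95 of the sum in Opn4 sham and Cdkn1a 27.0% ± 5.74. In Opn4 crush Cdkn1a held 83.4% ± 2.43, and in HB9 crush 93.3% ± 2.81 of a sum that had been 8.21 ± 3.37 RPKM after sham and was 121.7 ± 2.74 after crush. Sesn2 took 91.5% ± 4.57 of the summed Sesn1 and Sesn2 RPKM in HB9 crush, against 58.3% ± 4.71 in HB9 sham.

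Sesn2 (ENSMUSG00000028893, chromosome 4, 132492032 to 132510501, minus strand) encodes sestrin 2, a leucine sensor that restrains the growth kinase complex mTORC1 through GATOR2 and limits oxidative stress. It was at 23.6, 21.99 and 19.0 RPKM in HB9 sham and 160.8, 138.4 and 125.3 in HB9 crush. Opn4 cells held 30.4, 25.3 and 18.2 RPKM after sham and 31.7, 19.2 and 38.9 after crush. The HB9 crush libraries alone were high, and the other 3 groups overlapped. Sesn2 rose by 2.66 ± 0.28 in HB9 cells (adjusted p = 0.000113), against 0.24 ± 0.28 in Opn4 cells (adjusted p = 0.735). The difference was -2.42 ± 0.40 (adjusted p = 0.0154, and 0.0505 without HB9 crush library 1). After crush the class difference was -2.25 ± 0.28 (adjusted p = 0.000241), with all Opn4 libraries below all HB9 libraries.

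**Figure D3:**
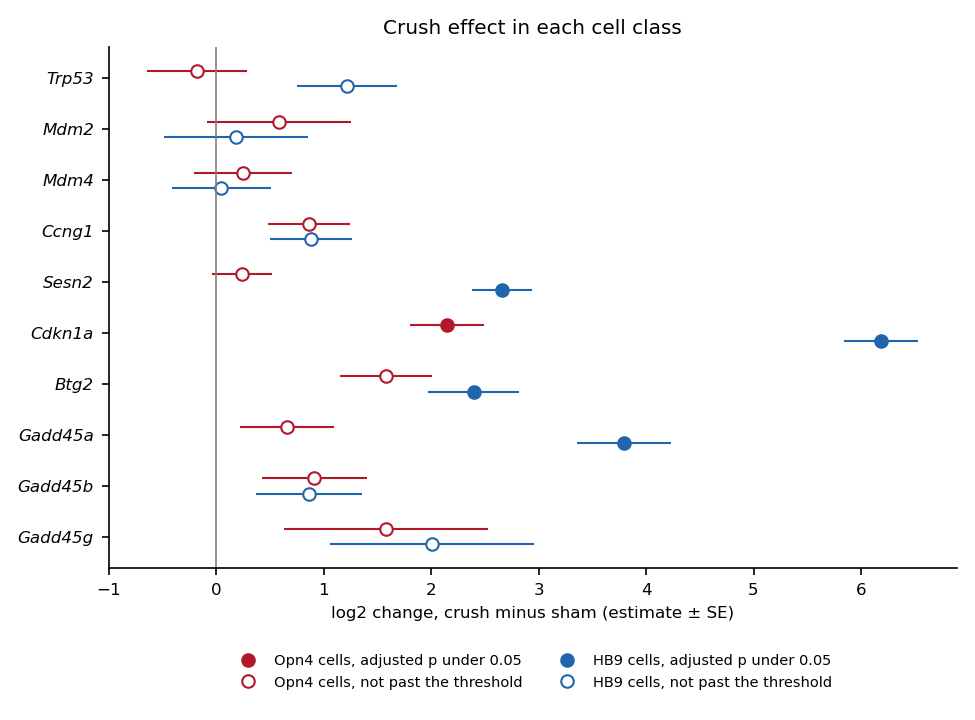
Crush effect on each of the 10 genes in Opn4 (red) and HB9 cells (blue): the horizontal axis is the log2 change, crush minus sham, with bars of 1 SE, and filled points have an adjusted p under 0.05. Cdkn1a, Gadd45a and Sesn2 are the genes whose estimates lie far apart, whereas those of Ccng1 and Gadd45b nearly coincide.

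Counted over the set, 4 of the 10 genes were higher with crush in HB9 cells, where 3.84% of all genes were called higher and 6.42% in either direction. The HB9 crush libraries lay above all HB9 sham libraries for 7 of the 10, against 19.0% of all genes. The median log2 change was 1.61, beside 0.11 over all genes tested. In Opn4 cells 1 of the 10 was called (0.690% of all genes called higher, 1.11% in either direction), 3 of the 10 had all crush libraries above all sham libraries (7.38% of all genes, with 7.33% below and 14.7% in either direction), and the median was 0.76 beside -0.02. Without the 2 libraries that stand apart, 0 of the 10 were called in Opn4 cells by limma, with 2 at an unadjusted p under 0.05, and the median was 0.46. The difference of the crush effects was called for 3 of the 10, all lower in Opn4 cells, with 0.525% of all genes called lower and 0.816% either way. The HB9 and Opn4 counts rest on separate libraries but on 1 shared estimate of the spread.

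Transcripts of other retinal cells were present, and some moved with crush. The summed RPKM of 7 Müller glia and astrocyte markers was 21.4 to 47.3 in Opn4 sham and 16.6, 31.1 and 231.2 in Opn4 crush, the highest in Opn4 crush 1. In HB9 cells it was 13.2 to 18.2 after sham and 41.2 to 46.1 after crush, mostly Rlbp1 and Glul, while Aqp4 and Sox9 were at 0 in all 6 HB9 libraries. The sum of 6 cone markers reached 339.4 in Opn4 crush 2 and 145.0 in Opn4 sham 1, and was 0.382 to 115.8 in the other 4 Opn4 libraries. For 6 amacrine markers the sums were 3.10 to 26.2 in HB9 sham and 50.5 to 130.5 in HB9 crush, with Slc6a9, a glycine transporter, at 35.7 to 42.8 RPKM in HB9 crush. Their part in the results was not tested. The 7 microglia and macrophage markers summed to 3.06 to 3.93 in HB9 sham and 5.20 to 5.47 in HB9 crush, nearly all Csf1r, with C1qb and Tmem119 at 0 in all 6 HB9 libraries. With the rod level as a covariate, 4 of the 10 genes were still called in HB9 cells. Mnx1, whose promoter drives the HB9 reporter, fell by 3.30 on the log2 scale with crush in HB9 cells (-3.30 ± 0.43, adjusted p = 0.000471). The 4 markers of the HB9 line summed to 4894 to 6207 RPKM in HB9 sham. In HB9 crush libraries 1 to 3 that sum was 1454, 5954 and 6484. The summed RPKM of 7 general ganglion cell markers was 7105 to 7974 in HB9 sham and 4301 to 4846 in HB9 crush, and 4653 to 5040 in Opn4 sham and 3735 to 4413 in Opn4 crush. Among them Rbpms fell in both classes (-1.22 in HB9 and -0.78 in Opn4 cells) and Sncg in HB9 cells (-0.94). At an unadjusted p under 0.05, 5 of the 7 were lower in HB9 cells, beside 18.9% of all genes in either direction. Of the 4 ipRGC markers, 3 were lower with crush in Opn4 cells at an unadjusted p under 0.05, beside 14.3% of all genes in either direction. Trpc7 was past the threshold in Opn4 cells (-2.08, adjusted p = 0.0209), while Eomes rose in HB9 cells (2.32, adjusted p = 0.000837). The part of these marker changes in the results was not tested.

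The classes also differed in these genes before injury. After sham, Cdkn1a, Btg2 and Gadd45b were higher in Opn4 than in HB9 cells and none of the 10 was called lower (11.8% of all genes were called, 5.82% higher and 5.93% lower). At an unadjusted p under 0.05, 2 of the 10 were lower, beside 24.7% of all genes in either direction. Libraries did not overlap for 5 of the 10, 3 above and 2 below (Ccng1 and Gadd45g), against 15.5% above, 15.2% below and 30.7% in all over all genes, and the median difference was 0.10 beside 0.01. After crush, Btg2 and Gadd45b were higher and Gadd45a and Sesn2 lower in Opn4 cells, so that 4 of the 10 were called, beside 5.12% of all genes higher, 7.60% lower and 12.7% in all. Without the 2 libraries that stand apart, 2 were called higher and 4 lower, since Ccng1 (-1.21 ± 0.30, adjusted p = 0.0223) and Gadd45g (-2.71 ± 0.81, adjusted p = 0.0495) passed as well. After crush with all libraries kept, 6 of the 10 did not overlap, against 30.4% of all genes, and the median was -0.96 beside -0.12. The calls of Btg2 and Gadd45b in both comparisons, of Cdkn1a after sham, and of Gadd45a and Sesn2 after crush held in each of the 16 alternative fits run for each. Trp53 after crush was lower in Opn4 cells in all libraries without passing (-1.36 ± 0.46, adjusted p = 0.0765), and passed without Opn4 crush library 3 (0.0192).

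**Figure D4:**
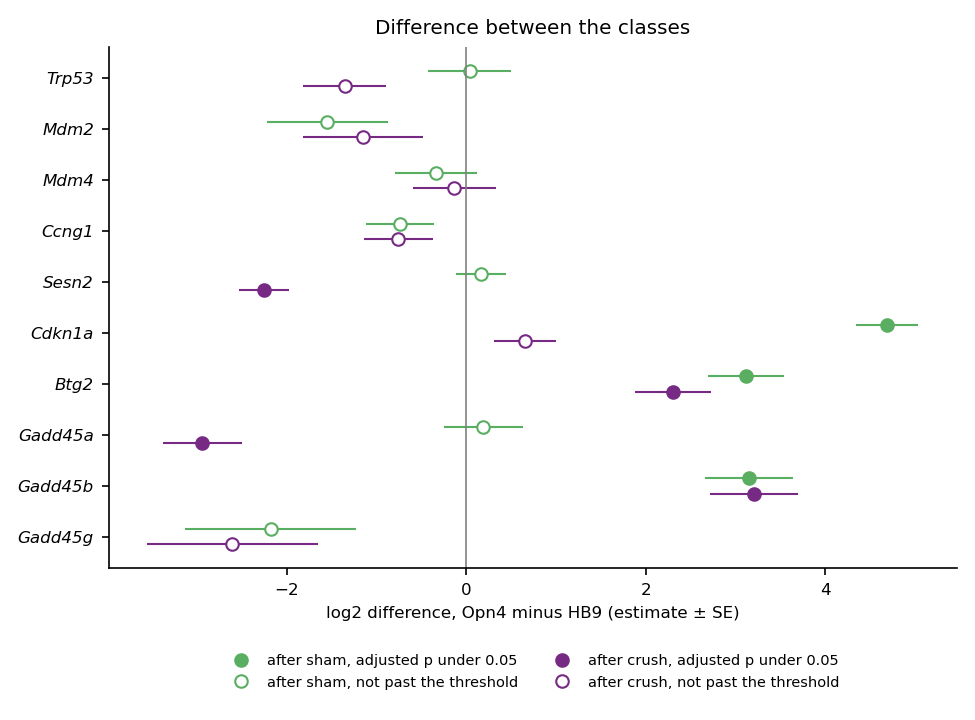
Difference between the classes for each of the 10 genes after sham (green) and after crush (purple): the horizontal axis is the log2 difference, Opn4 minus HB9, with bars of 1 SE, and filled points have an adjusted p under 0.05. Btg2 and Gadd45b lie to the right in both conditions, Cdkn1a is called after sham alone, and Gadd45a and Sesn2 are called after crush alone.

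Wider lists around the pathway were followed in the same fit. Of 34 further p53 targets, 26 were tested. In HB9 cells 3 rose and 0 fell with crush, against 3.84% of all genes called higher and 2.57% lower. The median was 0.45, beside 0.11 over all genes tested. At an unadjusted p under 0.05, 8 were higher and 0 lower, beside 18.9% of all genes in either direction. In the fit without the 2 libraries that stand apart, 5 were called higher. The apoptosis gene Bbc3 (PUMA), a BH3-only activator of cell death, was at 1.62, 0.40 and 1.08 RPKM in HB9 sham and 13.02, 16.7 and 31.7 in HB9 crush, with no overlap (3.35 ± 0.53, adjusted p = 0.00188). Perp, a membrane protein of p53-dependent apoptosis, changed by 2.23 (adjusted p = 0.0372) and Phlda3, an inhibitor of AKT, by 2.02 (adjusted p = 0.019). The latter calls were lost in several alternatives, with adjusted p up to 0.147 and 0.0813. In Opn4 cells 0 of the 26 passed in limma and 0 with voom, with a median of 0.05. At an unadjusted p under 0.05 there were 5 of the 26, beside 14.3% of all genes. Bbc3 was at 7.02 ± 2.56 RPKM in Opn4 crush against 1.16 ± 0.997 in Opn4 sham (SD, n = 3). The difference of the effects was called for 0 of the 26 in limma and 0 with voom. At an unadjusted p under 0.05 there were 4, beside 12.9% of all genes. Without the 2 libraries that stand apart, 1 of the 26 was called, with the lower change in Opn4 cells. After crush Perp, Apaf1 and Bax were lower in Opn4 cells (-2.56, -1.62 and -0.85), the calls of Apaf1 and Bax being lost in most alternatives.

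The regulators of p53 and the proteins that act with the 10 genes gave few calls. Of 16 tested regulators and relatives of p53, 0 passed with crush in either class in limma or with voom. At an unadjusted p under 0.05 there were 1 in Opn4 and 2 in HB9 cells, beside 14.3% and 18.9% of all genes. The phosphatase Ppm1d was higher in Opn4 cells after crush (1.77, adjusted p = 0.0494) and the ubiquitin ligase Cop1 lower after sham (-1.37, adjusted p = 0.0258). The Ppm1d call held in 4 of 16 alternatives and the Cop1 call in 12 of 16, with an adjusted p up to 0.122 when 1 library was left out. All 18 genes for direct partners of the GADD45, sestrin and BTG2 proteins were tested, such as Map3k4, the GATOR2 subunit Wdr24 and the deadenylase Cnot7. Of these, 0 passed in any of the 5 comparisons in limma or with voom. In each comparison 1 to 4 of the 18 had an unadjusted p under 0.05, beside 12.9% to 26.5% of all genes. Their medians were -0.02 in both crush comparisons.

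Among 10 tested CDK inhibitors, BTG/TOB genes and pocket proteins, the antiproliferative Btg3 rose with crush in HB9 cells, from 1.23 ± 0.618 to 20.1 ± 6.01 RPKM (SD, n = 3; 3.24 ± 0.38, adjusted p = 0.000261). It was also higher in Opn4 than HB9 cells after sham (2.55), as were Cdkn1c (5.28 ± 0.64, adjusted p = 0.000182) and Tob1 (1.33). None of the 10 passed with crush in Opn4 cells in limma or with voom (3 at an unadjusted p under 0.05, beside 14.3% of all genes). Cdkn1c was at 102.0 ± 11.9 RPKM in Opn4 sham and 33.3 ± 12.8 in Opn4 crush. Of 16 genes that drive the cell cycle or mark division, 9 were tested. With crush in HB9 cells, Cdk4 rose (0.90, adjusted p = 0.0437) and the transcription factor E2f1 fell (-2.11, adjusted p = 0.0256), and both calls were lost in some alternatives, with adjusted p up to 0.134 and 0.165. The proliferation marker Mki67 was listed at 0 in all 12 libraries.

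ATF4, which translation control switches on under amino acid or protein stress, shares targets with p53. Of 12 genes of the ATF4 branch of the integrated stress response, 10 rose with crush in HB9 cells (3.84% of all genes), with a median of 2.46. Trib3 (4.17), Nupr1 (3.65), Ddit3 (3.51, CHOP), the amino acid transporter subunit Slc3a2 (3.32) and Chac1 (3.17) changed most, and of these the Trib3 call held in 7 of 16 alternatives. In Opn4 cells 3 of the 12 rose (0.690% of all genes), Atf5 (2.13), Ddit3 (1.92) and Chac1 (1.61), with a median of 1.00. Their adjusted p reached 0.275, 0.218 and 0.302 in alternatives, and 2 of the 12 were called without the libraries that stand apart. The difference of the effects was called for Slc3a2 (-2.51 ± 0.36, adjusted p = 0.00763) and Asns (-1.34 ± 0.26, adjusted p = 0.0359, held in 8 of 21 alternatives). Summed over the 12 genes, RPKM was 396.6 to 461.7 in Opn4 sham, 633.0 to 875.9 in Opn4 crush, 506.4 to 653.0 in HB9 sham and 2716 to 3134 in HB9 crush. The HB9 crush libraries, which were also highest for Gadd45a and Sesn2, thus stood apart from the other 9. A part of ATF4 in the changes of Gadd45a and Sesn2 was not tested.

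Immediate early genes, which answer neuronal activity and also tissue dissociation, give the comparison for Btg2 and Gadd45b. Of 11 tested, 2 rose with crush in each class (0.690% of all genes in Opn4 and 3.84% in HB9 cells). These were Egr1 (2.14) and Dusp1 (2.05) in Opn4 cells, and Dusp1 (2.29) and Egr1 (2.13) in HB9 cells, where Ier3 fell (-1.31). The Ier3 call held in 10 of 16 alternatives, with an adjusted p up to 0.092. In Opn4 cells the Egr1 and Dusp1 calls were lost when the 6 libraries were fitted alone (adjusted p = 0.217 for Egr1 and 0.095 for Dusp1). The Egr1 call in Opn4 cells held in 11 of 16 alternatives. After crush Nr4a1 (3.09), Junb (2.47), Fos (2.10) and Dusp1 (1.35) were higher in Opn4 than in HB9 cells, while after sham Junb (2.57) and Dusp1 were higher and Ier3 (-1.98, adjusted p = 0.000968) was lower in Opn4 cells. The Nr4a1 call held in 10 of 16 alternatives, with an adjusted p up to 0.0928. With a rod covariate Junb did not pass after crush (adjusted p = 0.0698) or after sham (0.118). The summed RPKM of the immediate early genes was 328.8 to 844.1 in Opn4 sham, 859.8 to 1246 in Opn4 crush, 240.1 to 355.0 in HB9 sham and 449.8 to 560.2 in HB9 crush. All cells were taken through the same papain dissociation, and its part in the class difference of Btg2 and Gadd45b was not tested.

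**Figure D5:**
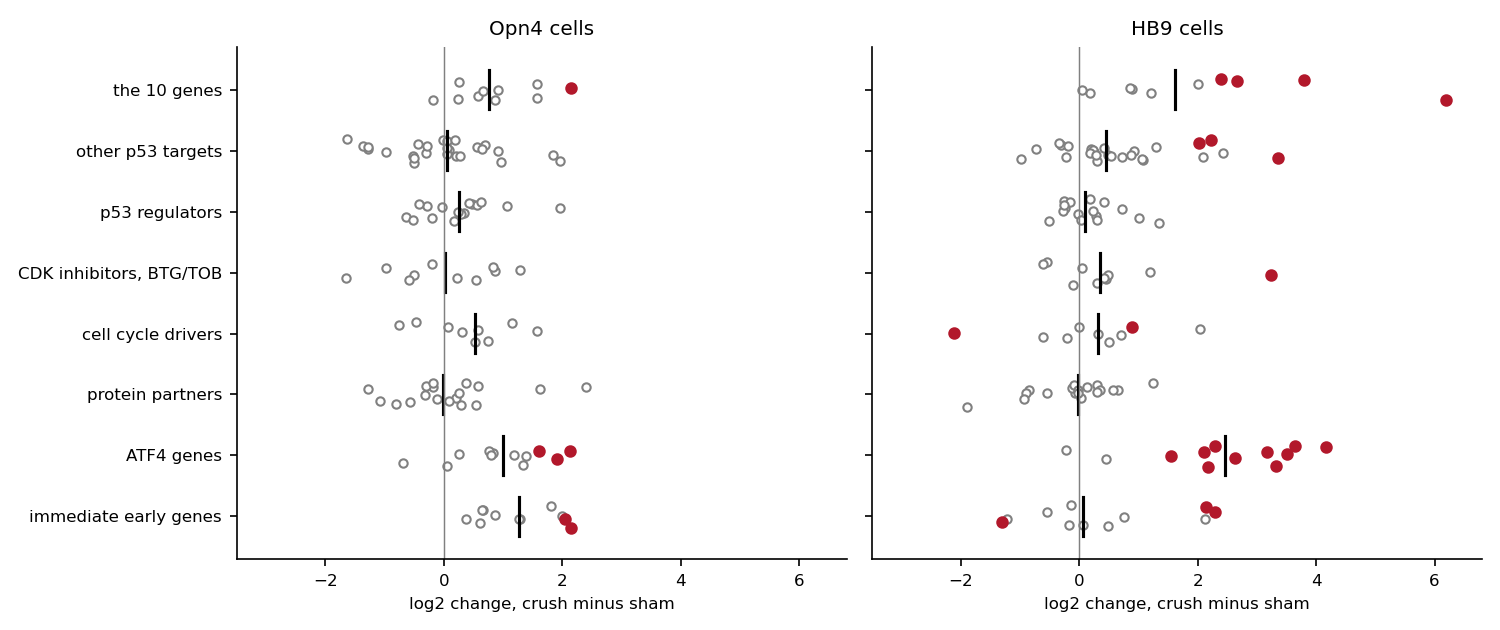
log2 change with crush (horizontal axis, crush minus sham) of each tested gene in the set of 10 and in 7 wider lists, in Opn4 cells (left) and HB9 cells (right). Filled red points have an adjusted p under 0.05, open points do not, and black bars are list medians, which reach 2.46 for the ATF4 genes in HB9 cells.

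Across the 12 libraries the 10 genes did not form 1 pattern. Pearson correlations of log2(RPKM + 1), given as descriptions over libraries that share group, depth and class, were 0.88 between Cdkn1a and Btg2, 0.87 between Btg2 and Gadd45b, and 0.87 between Gadd45a and Sesn2. By contrast, they were 0.10 between Btg2 and Gadd45a and -0.24 between Gadd45a and Gadd45b. Among all other named genes, the closest to Cdkn1a were Rnh1 (0.98), Btg3 (0.97) and Hn1 (0.96), to Sesn2 Mef2b (0.97), Rin1 (0.96) and Gprc5c (0.96), and to Btg2 Pea15a (0.96), Sdc3 (0.95) and Tmem178 (0.95). Gadd45a was closest to Hspa9-ps1 (0.97), a pseudogene that can share reads with its parent, Hspa9 (0.96) and Crabp2 (0.96), and Gadd45b to Igf1 (0.96), Ntrk3 (0.96) and Igfbp5 (0.95). The nearest genes were Pip5kl1 (0.93), Limk2 (0.93) and Inpp5j (0.91) for Gadd45g, and Cfl2 (0.93), Mir22 (0.92) and Deb1 (0.92) for Trp53. For Mdm2 they were Ubox5 (0.96), Mon1b (0.94) and Tspyl4 (0.94), for Mdm4 Atxn7l2 (0.91), Tldc1 (0.90) and Pacs2 (0.89), and for Ccng1 Hspbp1 (0.95), Pml (0.91) and Dmap1 (0.91).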

How the data were processed

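The deposited table holds 1 RPKM value per gene for each of 12 libraries, made by the authors; per the submitters' processing notes the tools were TopHat2 2.0.11, Bowtie and edgeR 3.14.0, with genome build mm10. The role of edgeR, the counting and its use of strand are not given in the sources used here.

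The 18269 genes that reached an RPKM of 1 in 3 or more libraries were tested as log2(RPKM + 1), using R 4.3.3 and limma 3.58.1 with an intensity trend. The fit had 4 group means, tests were two-sided, and p-values were adjusted by Benjamini-Hochberg over all genes of a comparison. The procedure was tested on simulated data with less spread than these libraries and with changes placed only in genes away from the low end. Recovery of changes in genes near 0 RPKM was therefore not tested. Low RPKM values of short genes were whole multiples of the value of 1 read (100% within 0.01 read), from which scaling totals and reads were recovered. Those reads summed to 226.7% to 244.2% of the totals, so absolute read numbers are approximate. They served only for floors (3 reads, counting error only), for the voom alternative and for the read numbers given for Cdkn1a.

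Members, lists and promoter motifs were chosen with earlier results of these data known. Named genes are the 10 members, at most 5 called genes per list and comparison by absolute log2 change, and the 3 nearest genes per member by Pearson correlation, leaving out provisional gene names. Labels describe each replicate as a pool from separate animals. No column pair was identical.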

Additional observations from a re-analysis of the deposited data

Results flagged for a closer look

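The crush effect differed between the classes, by the interaction contrast of the limma fit, for 3 of the 10 genes, each lower in Opn4 than in HB9 cells. The difference (Opn4 minus HB9, log2) was -4.04 for Cdkn1a (adjusted p = 0.00434), -3.13 for Gadd45a (adjusted p = 0.038) and -2.42 for Sesn2 (adjusted p = 0.0154). The Gadd45a difference was past the threshold in 5 of 21 alternatives, that of Cdkn1a in 20 and that of Sesn2 in 20. For Cdkn1a the classes started from different sham levels, 41.7 ± 15.8 against 0.640 ± 0.551 RPKM (SD, n = 3), while Gadd45a and Sesn2 had overlapping sham libraries. Groups of 3 libraries are too small for the check on single outlying libraries.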

How the results depend on the processing

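Of the 10 genes, the number past the threshold stayed within 1.5 times its value in most alternatives, and no called change turned its sign. In Opn4 cells the count of 1 became 0 with a pseudocount of 0.1, 0 in a fit of the compared groups alone, 0 without the 2 libraries that stand apart (an alternative chosen after seeing the data) and 2 with voom. In HB9 cells the count of 4 became 7 with library weights and 7 in a fit of the compared groups alone. The count of 3 for the difference of the crush effects became 1 with voom. Leaving out 1 library at a time gave 1 to 1 in Opn4 cells, 4 to 4 in HB9 cells, 1 to 3 for the difference (1 without HB9 crush library 1), 3 to 3 for the class difference after sham and 4 to 6 after crush. The cause was not tested.

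Replicate numbers do not pair the libraries: same-number correlations of deviations lay between -0.022 and 0.081. With a replicate block the counts were 1, 4, 2, 3 and 4 in the order above, and Gadd45a lost its difference (adjusted p = 0.0683).

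Over all genes, the 203 calls in Opn4 cells became 87 with library weights and 19 in a fit of the compared groups alone. The 1172 calls in HB9 cells became 3025 and 2106 under the same alternatives and 645 to 777 with 1 library left out. The 149 calls of the difference became 90 with a pseudocount of 0.1, 98 with the replicate block and 61 to 156 with 1 library left out. The class counts of 2148 and 2325 became 919 and 1240 with a rod covariate, and 1348 to 1923 and 1356 to 2201 with 1 library left out. Median-ratio scaling moved the share of calls that were higher from 59.9% to 48.3% in HB9 cells and from 35.6% to 47.1% for the difference. It moved the median of all genes by less than 0.1 in each comparison. Depth limits Cdkn1a in HB9 sham, at 2 to 62 recovered reads (approximate numbers), where the size of the fold rests on few reads and on the pseudocount. The HB9 change ranged from 5.89 to 8.26 over the alternatives.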
